A study of Homo sapiens with 4 samples.

Results

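The miRNAs described here come from introns of 2 genes of the Slit family, SLIT2 and SLIT3, and make up 5 of the 2656 mature miRNAs in the deposited table. They are hsa-miR-218-5p, the locus-specific arms hsa-miR-218-1-3p of SLIT2 and hsa-miR-218-2-3p of SLIT3, and both arms of the SLIT3 miRNA miR-585, hsa-miR-585-3p and hsa-miR-585-5p; the prefix for human is left out below. The members were chosen by host gene and selected on the measured differences of miR-218-5p and miR-585-3p between the groups, which were already known. Their differences between the groups are therefore given as descriptions, without a test, and the same contrast in the other arms is treated in the same way. The libraries come from HEK293T cells, an embryonic kidney line that carries the SV40 large T antigen. In the PGK group the cells carry a landing pad, an engineered genomic site for transgenes, with the promoter of the phosphoglycerate kinase gene. In the CAG group the pad has the CAG promoter, a synthetic strong promoter with a cytomegalovirus enhancer. Each group has 2 libraries of small RNA from total RNA, and no other treatment is given in the labels. The lines were monoclonal, and neither the number of clones nor whether replicates were separate cultures was given. Promoter and clone therefore cannot be told apart, and the spread between replicates may be technical.

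A miRNA is cut from a hairpin whose 2 strands, the 5p and 3p arms, can each be loaded into Argonaute, although usually one arm accumulates and the other is degraded. The loaded arm recognises its targets mainly through its seed, bases 2 to 8 from the 5′ end. Slit proteins are secreted ligands that repel growing axons and migrating cells through Robo receptors. The miR-218 hairpins lie within the genes of these ligands and ROBO1 is a known target of miR-218, which is abundant in motor neurons.

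The mature sequences show why the 3p arms are the informative ones for the host gene. Both miR-218 hairpins give the same 5p arm, whereas their 3p arms differ. The sequences below are from RefSeq (GRCh38.p14), 5′ to 3′, with the seed in capitals, and all 5 members had an entry there.
miR-218-5p: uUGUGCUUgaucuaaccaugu
miR-218-1-3p: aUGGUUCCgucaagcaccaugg
miR-218-2-3p: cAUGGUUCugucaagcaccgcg
miR-585-3p: uGGGCGUAucuguaugcua
miR-585-5p: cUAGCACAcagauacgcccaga
The annotated 3p arm of SLIT3 starts 1 base earlier than that of SLIT2. Over the 21 bases they share, 18 match and 3 are substituted, C8U, A19G and U20C, counted from 1 at the 5′ end of miR-218-1-3p with its base given first. A read that covers any of these positions fits both arms only if mismatches are allowed. The authors' rule on mismatches was not given. The 5 members have 5 different seeds. No other entry of the RefSeq table had any of them, and the deposited count of each seed family was identical to that of its member in every library. Both arms that accumulated, miR-218-5p and miR-585-3p, begin with U, while the 3 scarce arms begin with A or C. Among 300 hairpins with 2 named arms and at least 100 reads, the more abundant arm began with U in 54.7% and the other arm in 23.7%.

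All 3 hairpins are transcribed in the direction of their host. MIR218-1 lies at chr4:20528275-20528384 on the plus strand, in intron 16 of a 39-exon SLIT2 transcript, and was intronic in all 5 SLIT2 transcripts that span it. MIR218-2 lies at chr5:168768146-168768255 on the minus strand, in intron 14 of a 36-exon SLIT3 transcript. MIR585 lies at chr5:169263601-169263694 on the minus strand, in intron 1 of the same transcript, 495 kb upstream of MIR218-2. Each of these was intronic in all 4 SLIT3 transcripts that span it. Hairpin positions are from RefSeq and were identical in GENCODE release 29. Introns and exon numbers are from GENCODE alone. The authors' build was not given in the sources used here.

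Depth ranged from 2845945 counts, in CAG replicate 2, to 13780279 counts, in CAG replicate 1. Levels below are CPM, which are counts per 1000000 reads of a library after TMM correction for composition. Where a library had 0 reads, the limit of 3 reads corresponds to 0.233 CPM in CAG replicate 1 and 0.972 CPM in replicate 2. Such limits and all binomial intervals cover counting error only, since PCR reads without molecular identifiers are not independent molecules. Of all miRNAs, 773 passed the filter on low counts and were tested, and edgeR's quasi-likelihood test called 14.2% of them at an adjusted p under 0.05, 8.15% higher and 6.08% lower in CAG cells. Of the 5 members 2 passed the filter, miR-218-5p and miR-585-3p, and both were called, in opposite directions. Since this contrast helped to choose them, nothing is read from that count. Adapter ligation favours some sequences, so levels of different miRNAs are only roughly comparable, and levels of 1 miRNA between libraries are the firmer measure.

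miR-218-5p was abundant in all 4 libraries. In the PGK libraries it stood at 6281 CPM (replicate 1) and 6746 CPM (replicate 2), and in the CAG libraries at 27274 CPM (replicate 1) and 24156 CPM (replicate 2). Both CAG libraries were far above both PGK libraries, and the replicates of each group lay close together. As this contrast helped to choose the miRNA, the separation of the groups is a description only. The miRNA took 0.633% of counts in PGK replicate 1 (95% Clopper-Pearson interval 0.628% to 0.639%) and 0.660% in PGK replicate 2 (0.654% to 0.666%). In CAG replicates 1 and 2 it took 2.55% (2.54% to 2.56%) and 2.62% (2.60% to 2.64%). By read count it ranked 28 and 29 among all miRNAs of the PGK libraries and 7 in both CAG libraries. The fitted log2 fold change, CAG minus PGK, was 1.98 (SE 0.15), a 3.95-fold higher level. In the order of fold changes of the 773 tested miRNAs it was number 17 from the top, and in mean level it was number 14 of all. The 16 miRNAs with larger fold changes had mean levels of at most 326 CPM. Over the 12 alternative analyses its log2 fold change lay between 1.90 and 2.07.

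**Figure D1:**
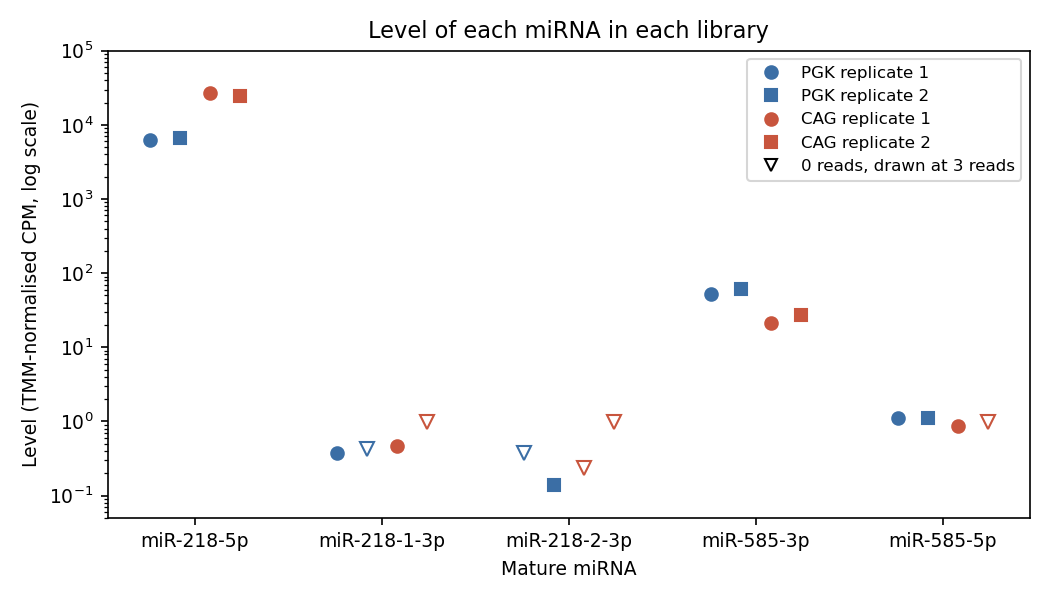
Level in TMM-normalised CPM (log axis) of the 5 miRNAs in each library; circles are replicate 1, squares replicate 2, blue PGK and red CAG, and open triangles mark libraries with 0 reads, drawn at the level of 3 reads. miR-218-5p lies between 6281 and 27274 CPM and is higher in both CAG libraries, miR-585-3p lies between 21.2 and 60.7 CPM and is lower in both, and the other 3 arms have at most 11 reads in any library.

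**Figure D2:**
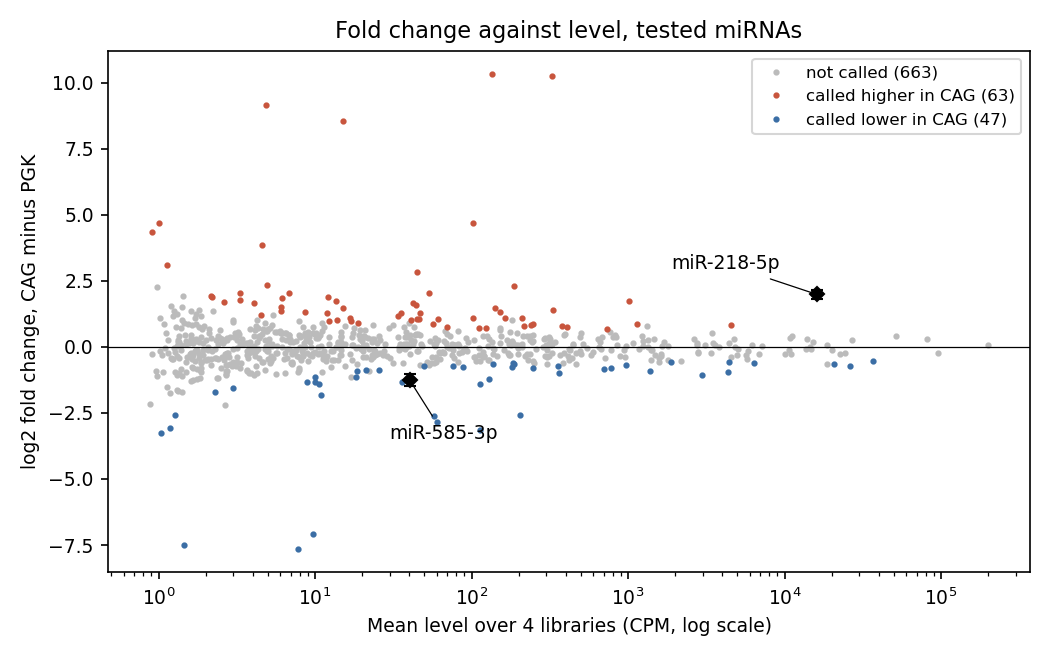
log2 fold change (CAG minus PGK) against mean level over the 4 libraries (CPM, log axis) for the 773 tested miRNAs, with called ones in colour; diamonds with SE bars mark the 2 tested members. miR-218-5p is at 1.98 among the most abundant miRNAs and miR-585-3p at −1.27 at a mean of 40.4 CPM.

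The arms that could tell SLIT2 from SLIT3 were almost absent. miR-218-1-3p, the SLIT2 arm, had 3 reads in PGK replicate 1, 0 in PGK replicate 2, 6 in CAG replicate 1 and 0 in CAG replicate 2. Its reads came only from replicate 1 of each group. That library was far deeper than replicate 2 in CAG but only slightly deeper in PGK (7927615 against 7331437 counts). miR-218-2-3p, the SLIT3 arm, had 1 read in PGK replicate 2 and 0 in the other 3 libraries. Against 524311 reads of miR-218-5p, both 3p arms together had 10, or 19.1 per 1000000 5p reads (95% exact interval 9.15 to 35.1). Of these 10 reads 9 were of the SLIT2 arm, a share of 90% with an exact interval of 55.5% to 99.7%. The share was 3 of 4 reads in PGK cells (19.4% to 99.4%) and 6 of 6 in CAG cells (54.1% to 100%), and these intervals overlap widely. Neither 3p arm reached the filter for testing. With reads summed by group, miR-218-1-3p had a CAG to PGK ratio of 1.90 with an exact interval of 0.406 to 11.7, which includes both no difference and the 4.10-fold ratio of summed miR-218-5p reads. For miR-218-2-3p both groups were below 3 reads and no ratio is given. Which of the 2 host genes accounts for the higher miR-218-5p level was thus not detectable at this depth. The share of SLIT2 reads in all libraries together describes 3p arms that survived and need not equal the share of the 5p arm made at each locus.

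If CAG cells had kept the PGK proportion of 3p to 5p reads, 17.3 reads of the 3p arms would stand against the 6 seen. The proportion was 40.6 per 1000000 in PGK cells (11.1 to 103.9) and 14.1 per 1000000 in CAG cells (5.17 to 30.7). The ratio of these proportions was 0.347, with an exact interval of 0.0824 to 1.67 that includes 1. Per library the proportion was 59.8, 20.7, 17.1 and 0 per 1000000 in PGK replicates 1 and 2 and CAG replicates 1 and 2. The value of 0 allows up to 40.3 at the limit of 3 reads and up to 49.5 by the exact interval.

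The proportion was also set beside that of other miRNAs made at several loci. With at least 1000 reads of the shared arm, 14 miRNAs had a locus-specific other arm for each of 2 hairpins, and miR-218 had the lowest proportion of such reads. The median of the 14 was 8577 per 1000000, 450 times that of miR-218, and would correspond to 4497 reads for miR-218-5p. The next lowest was miR-103a-3p, whose hairpins lie in PANK2 and PANK3, with 117 per 1000000, followed by miR-26a-5p with 1027 and miR-7-5p with 1265. Among the 300 hairpins above, by share of the scarcer arm, MIR218-2 was number 33 and MIR218-1 number 35 from the lowest. In several of the 14 miRNAs 1 locus gave nearly all reads of the locus-specific arms. The other arms of miR-7-5p had 2263 reads from miR-7-1-3p and 3 from miR-7-2-3p, those of miR-92a-3p had 6357 from miR-92a-1-5p and 0 from miR-92a-2-5p, and those of miR-128-3p had 1405 from miR-128-1-5p and 0 from miR-128-2-5p. For miR-125b-5p, called higher, the log2 fold change was 0.87, against 0.74 for its abundant locus arm miR-125b-2-3p, also called higher. For miR-129-5p, called higher, it was 0.79, against 0.76 for miR-129-2-3p, which was not called. For miR-7-5p the shared arm and miR-7-1-3p had log2 fold changes of 0.41 and 0.41. For miR-30c-5p the value was −0.31, against −0.29 for miR-30c-2-3p, its more abundant locus arm. In other cases a locus arm did not change like the shared arm. For miR-92a-3p the value was −0.22 against 0.07 for miR-92a-1-5p, and for miR-19b-3p it was −0.16 against 0.42 for miR-19b-1-5p, none of these being called. For miR-16-5p it was 0.05, against −0.09 for its abundant locus arm miR-16-2-3p and 0.97 for miR-16-1-3p, which edgeR called higher. These differences between arms were not tested, and the cases given are not all of the 14.

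**Figure D3:**
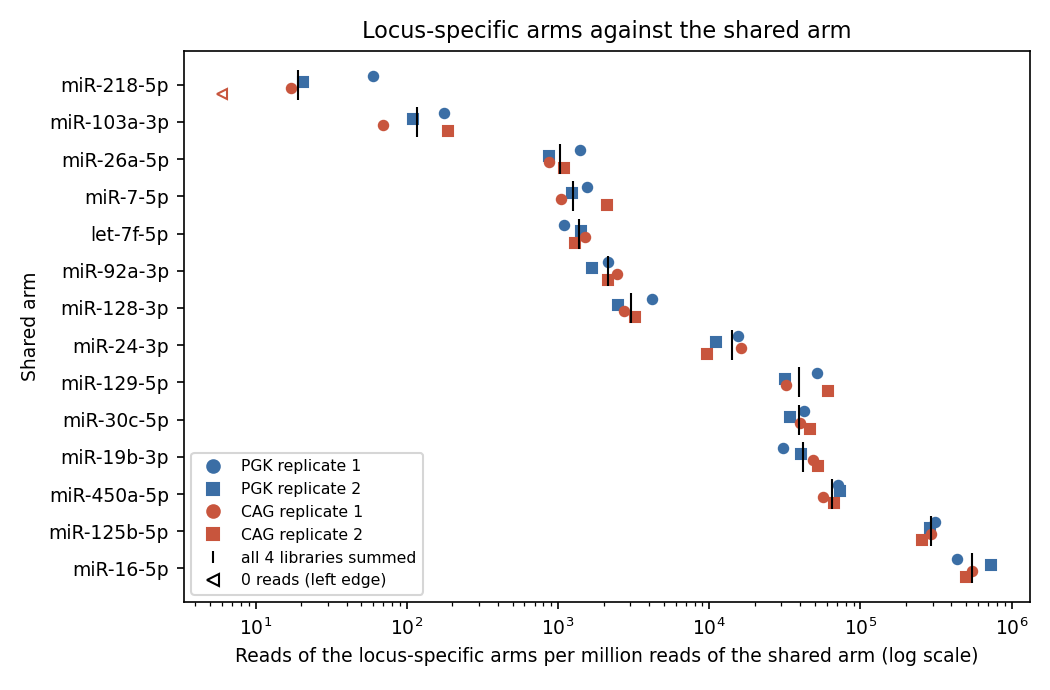
Reads of the locus-specific arms per 1000000 reads of the shared arm (log axis) for 14 miRNAs with locus-specific arms from 2 hairpins; circles are replicate 1, squares replicate 2, blue PGK, red CAG, and black bars the sum over 4 libraries. miR-218 is lowest at 19.1 per 1000000, with 0 reads in CAG replicate 2 (open triangle), and miR-16-5p is highest at 548266 per 1000000.

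miR-585, the miRNA that SLIT3 alone carries, was scarcer than miR-218-5p and lower in CAG cells. In the PGK libraries miR-585-3p stood at 52.8 CPM (422 reads, replicate 1) and 60.7 CPM (435 reads, replicate 2), and in the CAG libraries at 21.2 CPM (273 reads, replicate 1) and 26.9 CPM (83 reads, replicate 2). Both CAG values were below both PGK values. Since this contrast helped to choose the miRNA, and separation over all tested miRNAs was not counted, nothing is read from that. The fitted log2 fold change was −1.27 (SE 0.23), or 0.414 of the PGK level, number 27 from the lowest of the 773 tested miRNAs. Without PGK replicate 1 and without PGK replicate 2 it was −1.38 and −1.16, and edgeR did not call it. miR-585-5p, the other arm, had 9 and 8 reads in PGK and 11 and 0 reads in CAG replicates 1 and 2. With reads summed by group its CAG to PGK ratio was 0.615 (exact interval 0.260 to 1.39), which includes both no difference and the ratio of 0.395 for summed miR-585-3p reads. In PGK cells miR-585-5p made up 1.95% of the reads of the hairpin (1.14% to 3.10%), and in CAG cells 2.997% (1.51% to 5.30%), so that a shift between the arms was not detectable at this depth. Over all libraries it was 2.26% of the hairpin's reads. The median share of the scarcer arm over the 300 hairpins was 3.42%, and miR-585 was number 135 from the lowest.

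The ratio of miR-218-5p to miR-585-3p reads within a library does not depend on scaling. It was 119 in PGK replicate 1, 111 in PGK replicate 2, 1286 in CAG replicate 1 and 898 in CAG replicate 2. On the log2 scale it was 6.85 ± 0.0685 in PGK and 10.07 ± 0.367 in CAG cells (mean ± SD, n = 2), a difference of 3.22. Reads of miR-218-5p can come from both hosts and those of miR-585-3p from SLIT3 only, so this ratio does not give the output of 1 gene. For scale, all pairs of hairpins within the same protein-coding gene and on its strand were taken, each with its more abundant arm at a mean level of 20 CPM or more. There were 27 such pairs in 13 genes, and their median difference in log2 fold change was 0.0749. These pairs are not independent. Many come from the miRNA cluster of CLCN5, and miR-767-5p with miR-105-5p is entered more than once. The SLIT3 pair differed by 3.25 and the other 26 by at most 0.368. The SLIT3 pair was chosen with the opposite changes of its miRNAs known and the others were not, so this is a description and says nothing of how unusual the pair is. The other pairs are mostly close neighbours, at most 13.4 kb apart, whereas MIR218-2 and MIR585 start 495 kb apart, so no other pair matches this one in distance.

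**Figure D4:**
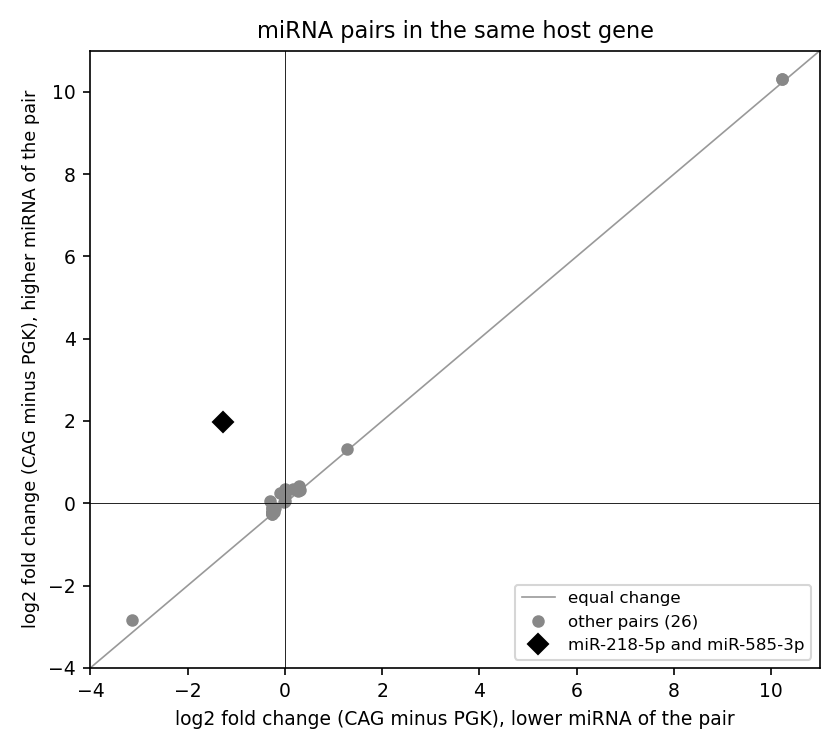
log2 fold changes (CAG minus PGK) of pairs of miRNAs in the same protein-coding gene, with the higher miRNA of each pair on the y axis and the lower on the x axis. The 26 other pairs (grey) lie within 0.368 of the line of equal change, and miR-218-5p with miR-585-3p (diamond) lies 3.25 above it.

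Apart from these hairpins, a search of the other genes of the pathway, SLIT1, ROBO1, ROBO2, ROBO3 and ROBO4, found 1 annotated hairpin, MIR3923, which lies within ROBO1 on the opposite strand. miR-3923 had 4 reads, all in CAG replicate 1, and was not tested.

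The surroundings of the hosts were then compared. Within 10 Mb of MIR218-1 on chromosome 4, 2 miRNAs outside the set had a mean level of 1 CPM or more. Of these edgeR called 1, beside 14.2% of all tested miRNAs, and 2 had an unadjusted p under 0.05. Of all 773 tested miRNAs, 109 that were higher and 99 that were lower had an unadjusted p under 0.05. miR-5091, 6.90 Mb from it, had a log2 fold change of 1.21 (SE 0.35; edgeR adjusted p = 0.0435), a call that was lost in 7 of 11 alternative analyses. miR-573, 3.99 Mb away, had 0.73 (SE 0.30; edgeR adjusted p = 0.135). Within 10 Mb of MIR218-2 and of MIR585 on chromosome 5 the same 6 miRNAs reached 1 CPM. An unadjusted p under 0.05 was found for 1 of them, and edgeR called 0, beside 14.2% of all tested miRNAs. At that share so few miRNAs cannot show whether the surroundings were unchanged. The nearest, miR-103a-3p, has a hairpin 0.207 Mb from MIR218-2 in the neighbouring gene PANK3 and had a log2 fold change of −0.08 (SE 0.15), but a second hairpin on another chromosome gives the same sequence. miR-3912-3p, 2.62 Mb from MIR218-2, had −0.05 (SE 0.35), miR-10523-5p had −0.35 (SE 0.30), miR-1271-5p had 0.12 (SE 0.20) and miR-146a-5p had −0.02 (SE 0.30). miR-1271-3p had the largest value, −1.16 (SE 0.43; edgeR adjusted p = 0.103), and limma-voom called none of the 6 either. DESeq2 gave no adjusted p for miR-1271-3p and called none of the others.

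The other miRNAs of chromosomes 4 and 5 were counted in the same way. This grouping was chosen with the values of the members known and leaves them out. Of 23 tested miRNAs found on chromosome 4 alone, 7 were called higher and 1 lower, beside 8.15% and 6.08% over all tested miRNAs, and the median log2 fold change was 0.51. Of 29 found on chromosome 5 alone, 3 were called higher and 3 lower, with a median of −0.16, beside a median of −0.0042 over all 773. Those higher were miR-548p, miR-874-3p and miR-143-3p, at log2 fold changes of 0.97, 0.85 and 1.32. Those lower were miR-378a-5p, miR-378a-3p and miR-340-5p, at −0.65, −0.55 and −0.57. The 1 called lower on chromosome 4 was miR-574-5p, at a log2 fold change of −0.63. The most abundant of those called higher on chromosome 4 were both arms of 1 hairpin. In replicates 1 and 2, miR-576-3p stood at 186 and 176 CPM with PGK and at 593 and 362 CPM with CAG, and miR-576-5p at 162 and 106 against 290 and 280 CPM. Both lost their calls without PGK replicate 1 and without PGK replicate 2. The median of chromosome 4 was between 0.41 and 0.62 in the alternative analyses. Its calls were not kept without PGK replicate 1 or without PGK replicate 2, fits in which calls fell over the whole table. With the replicate block 3 of chromosome 4 were called higher and 0 lower, beside 40 and 23 of all 773 tested miRNAs. DESeq2 called 4 higher and 1 lower there, beside 53 and 43 of all. On chromosome 5 the block left 1 called higher and 0 lower, and the calls were likewise not kept without PGK replicate 1 or 2. Without CAG replicate 1 the calls higher on chromosome 5 were not kept, and its median was −0.41. Arms of 1 hairpin and neighbours in a cluster are not independent readings, and no test of the chromosomes was made.

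Profiles over the 4 libraries were compared by the Euclidean distance of centred log2 CPM, among miRNAs at a mean level of 20 CPM or more. With 4 libraries in 2 groups, this mostly finds miRNAs with a like difference between the groups. Closest to miR-218-5p were miR-6500-3p at a distance of 0.219, miR-3613-5p at 0.342, miR-1269b at 0.376, miR-4421 at 0.440 and miR-199b-5p at 0.494, all called higher in CAG cells with log2 fold changes of 1.60 to 2.29. In replicates 1 and 2 miR-6500-3p, the closest, stood at 21.1 and 20.2 CPM with PGK and at 83.6 and 88.2 CPM with CAG. Closest to miR-585-3p were miR-9-3p at a distance of 0.175, miR-194-5p at 0.319, miR-378c at 0.342, miR-503-5p at 0.389 and miR-193a-5p at 0.419, all called lower, with log2 fold changes of −1.39 to −0.85. In replicates 1 and 2 miR-9-3p, the closest, stood at 149.5 and 176.5 CPM with PGK and at 57.9 and 67.1 CPM with CAG. The calls of miR-6500-3p, miR-3613-5p and miR-1269b were kept in all 12 alternative analyses. Without PGK replicate 2, the other 7 lost theirs.

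Since miR-218 is best known from motor neurons, miRNAs enriched in the nervous system were set beside it. Of the 10 listed, 6 were tested by edgeR, 1 was called higher and 2 lower in CAG cells, beside 8.15% and 6.08% of all tested miRNAs, and their median log2 fold change was −0.27 beside −0.0042 over all. miR-129-5p went from 159 ± 12.4 to 273 ± 25.7 CPM (mean ± SD, n = 2; log2 fold change 0.79, edgeR adjusted p = 0.0199). miR-9-5p, a miRNA of neural precursors, went from 3990 ± 139 to 1913 ± 207 CPM (n = 2; log2 fold change −1.06, edgeR adjusted p = 0.00196), and miR-9-3p, its other arm, had −1.39. The calls of miR-129-5p and miR-9-5p were lost without PGK replicate 1 and without PGK replicate 2. miR-128-3p, the most abundant of the list at a mean of 14829 CPM, had −0.07 (SE 0.18), and miR-132-3p had 0.05 (SE 0.23). The neuronal miRNA miR-124-3p had 4 reads in all libraries together, and miR-137-3p and miR-153-3p had 0. The summed level of the list was 17245 to 22146 CPM in PGK and 16206 to 17570 CPM in CAG libraries, ranges that overlap, while miR-218-5p alone went from below these sums to above them.

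Defining miRNAs of liver, blood and pluripotent cells were scarce, as were several of muscle, whereas miR-1-3p of muscle and miR-126-3p of endothelium were clearly present. The liver miRNA miR-122-5p was at a mean of 1.24 CPM, the summed blood list stayed below 1.63 CPM and the summed list of pluripotent cells below 0.63 CPM in every library. The muscle list had sums of 103.6 to 113.0 CPM with PGK and of 23.7 to 24.9 CPM with CAG, most of it miR-1-3p. Of its 3 tested members 2, miR-1-3p and miR-133a-3p, were called lower, beside 6.08% of all tested miRNAs. In all libraries together miR-133a-3p had only 38 reads. In replicates 1 and 2 it stood at 2.50 and 1.95 CPM with PGK and at 0.311 and 0 CPM with CAG. Its PGK level alone carried it past the low-count filter, which favours a lower call. The 2 of 3 therefore cannot be weighed against the 6.08%. The list of endothelium and mesenchyme had sums of 1565 to 1758 CPM with PGK and of 1142 to 1266 CPM with CAG. Nearly all of it was the endothelial miRNA miR-126-3p, which went from 1634 ± 141 to 1151 ± 96.7 CPM (mean ± SD, n = 2; log2 fold change −0.50, edgeR adjusted p = 0.0793). Of the 3 tested members 1, miR-143-3p, was called higher, at a mean of 8.58 CPM and beside 8.15% of all tested miRNAs. miR-199a-3p had a log2 fold change of 0.83 (edgeR adjusted p = 0.0659), and miR-145-5p had 6 reads in all and was not tested. Whether cells of other types had a part in the difference in miR-218-5p was not tested.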

How the data were processed

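Small RNA was measured in 4 HEK293T libraries, 2 PGK and 2 CAG; group and replicate number came from the sample titles. Per the labels' protocols, Trizol was used to isolate total RNA and the NEBNext Small RNA kit to build the libraries. The authors deposited whole-number read counts per mature miRNA and per seed family, with 1 column per library. Rules for trimming, alignment and counting were not given. Whether mismatches could let a read of 1 miR-218 3p arm count for the other is therefore unknown.

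edgeR 4.0.16 (R 4.3.3; quasi-likelihood, robust, TMM factors, low-count filter by group with minimum count 10 and minimum total 15) was fitted to the whole table without a replicate term. P-values were adjusted by Benjamini-Hochberg over the 773 tested miRNAs, and the SE is the log2 fold change divided by the root of F. The script was tested on simulated data. Reads of rare arms were summed by group and given exact binomial intervals (scipy 1.17.1). RefSeq sequences matched 2367 of 2656 rows by name; hosts came from GENCODE release 29. Profile distances used log2(CPM + 0.5). Alternatives were other scalings (RLE, upper quartile, library size), other filters (none, or 10 CPM in 2 libraries), other tools (DESeq2 1.42.0 and limma-voom in limma 3.58.1), a replicate block and each library left out.

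The members and lists were chosen with earlier results of these data known. The text names the 5 members, the 5 closest profiles to each tested member, the neighbours within 10 Mb at 1 CPM or more, other miRNAs with locus-specific arms, and listed nervous-system miRNAs of at least 20 CPM. The miR-576 arms and other called miRNAs of chromosomes 4 and 5, miR-3923, miR-124-3p and the named markers of other cells were chosen after their values were seen.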

Additional observations from a re-analysis of the deposited data

How the results depend on the processing

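Without PGK replicate 1 or 2 the spread of the lone PGK library is assumed to be that of the CAG pair. Over the fits without 1 library, edgeR called 10 to 84 miRNAs higher and 6 to 78 lower, against 63 and 47 with all libraries; the lows of 10 and 6 came without PGK replicate 2 (12 and 7 without PGK replicate 1) and the highs without CAG replicate 2. A filter of 10 CPM in 2 libraries called 39 higher among fewer miRNAs tested. With the replicate block 40 were called higher and 23 lower; the numbers do not pair the samples by the labels, and the deviations of same-numbered libraries had a correlation of -0.0088 across miRNAs. The cause of the other shifts was not tested. miR-585-3p had log2 fold changes of −1.41 to −1.07 over the fits without 1 library. With the block, the log2 fold change was 1.98 for miR-218-5p and −1.25 for miR-585-3p.

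For the arms under the filter, miR-218-1-3p had a log2 ratio of 0.93 that became 0.0019 without PGK replicate 2, and miR-585-5p one of −0.70 that became −0.39 without CAG replicate 2; all were within the counting intervals. The SLIT2 share of 3p reads per PGK library was 100% and 0%, a mean of 50% against 75% in summed reads. The log2 ratio of 3p to 5p reads differed between CAG and PGK by −1.04 over libraries with a 3p read, by −2.06 and −1.62 with 0.5 and 5 reads added, by −0.27 without PGK replicate 1 and by −1.81 without PGK replicate 2. No value was had for miR-218-2-3p, or for the 3p ratios without CAG replicate 1.

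Of named miRNAs that were not called, 6 turned sign. Their log2 fold changes over the fits without 1 library were −0.20 to 0.037 for miR-103a-3p, −0.053 to 0.29 for miR-1271-5p, −0.32 to 0.19 for miR-128-3p, −0.25 to 0.40 for miR-132-3p, −0.13 to 0.22 for miR-146a-5p and −0.56 to 0.18 for miR-3912-3p. miR-146a-5p was also at 0.0048 with DESeq2.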
